A study of Sus scrofa with 80 samples.

Results

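CD79B, BLNK, BTK and SPIB are 4 genes that B cells use to signal through their antigen receptor or to keep their identity. They were followed in the blood of 35-day-old weaned pigs on a porcine Affymetrix expression array. Members were all probe sets whose only platform gene symbol is CD79B, BLNK, BTK or SPIB, which gave 4 of 23999 tested probe sets, 1 for each gene, among 6765 genes with a probe set of 1 symbol. Their Entrez gene IDs are 100511898 (CD79B), 100152350 (BLNK), 100627308 (BTK) and 100525926 (SPIB). The study ranked pigs by a self-product of a trait pair and hybridised 5 pigs from the high end and 5 from the low end of each of 8 rankings, 80 arrays in all. The pairs were CD4+ with W35, CD8+ with W35, IFN-alpha with W35, IL-10 with W35, CD4+ with IFN-alpha, CD4+ with IL-10, CD8+ with IFN-alpha and CD8+ with IL-10, where CD4+ and CD8+ are flow cytometry readings, IFN-alpha and IL-10 are cytokines measured with immunological kits and W35 is body weight at day 35. High and low pigs had the same age, the same tissue and no treatment beyond blood sampling from the anterior vena cava, as far as the labels say. The labels used here name no breed or sex, and the formula of the self-product was not used here. RNA came from whole blood and not from sorted B cells, so fewer B cells and less RNA per B cell cannot be told apart.

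The B cell antigen receptor is a membrane immunoglobulin held to a signalling pair of CD79A and CD79B. As known from human and mouse B cells, binding of antigen leads to phosphorylation of the CD79 tails by kinases such as LYN, and the adaptor BLNK then brings BTK and phospholipase C gamma together to release calcium. Loss of BTK in humans causes X-linked agammaglobulinaemia, in which B cells and antibodies are nearly missing, and BTK is also made in monocytes and platelets. SPIB is a transcription factor of the ETS family that acts with its relative SPI1 in B cells and is also needed by human plasmacytoid dendritic cells.

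The deposited values are log2 expression, made with RMA per the submitters' processing notes. All 4 genes lay above the array medians of 5.17 to 5.80 on every array, with lowest values of 7.48 for CD79B, 6.39 for BLNK, 6.76 for BTK and 6.85 for SPIB. MS4A1, CD79A, PAX5, SYK and PLCG2 were not analysed here, because none has a probe set with that symbol alone. The same pigs recur between trait pairs: arrays correlating above 0.99 over all probe sets were counted as 1 animal, which gave 29 pigs. Of these, 21 were on 2 or more arrays, 13 carried the high label in 1 pair and the low label in another. Each pair held 10 different pigs. The arrays also split by their bioB and bioC hybridisation controls into a lower class of 26 arrays (11 pigs) and a higher class of 54 arrays (18 pigs). EIF1AY, a gene of the Y chromosome, was at or below 3.35 in 18 pigs and at or above 7.22 in 11.

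Among the 29 pigs, the 4 genes varied more than most probe sets on the array. For these levels each array was centred on its median, and the arrays of a pig were averaged. CD79B, the receptor's signalling chain, ran from 7.47 over a median of 9.47 to 10.61 log2 units, with an SD of 0.66 over pigs. BLNK, the adaptor, ran from 6.35 over 9.01 to 9.96 (SD 0.72). BTK, the kinase, ran from 6.85 over 9.06 to 10.01 (SD 0.61). SPIB, the transcription factor, ran from 6.93 over 7.72 to 9.28 (SD 0.59). The median SD of all tested probe sets was 0.35, and 85.9% (SPIB) to 93.6% (BLNK) of them had a smaller SD than the gene in question. Between arrays counted as the same pig the range was smaller than the range over pigs. Such arrays were joined because they correlated above 0.99, so a small spread between them was set in part in advance. The median range within a pig was 0.24 for CD79B, 0.17 for BLNK, 0.15 for BTK and 0.25 for SPIB, and the largest was 0.55, 0.39, 0.37 and 0.52 in the same order of genes.

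A pair of animals stood apart from the rest in these genes and recurs in the comparisons. Pigs are numbered here in the order of their first array. Pig 27 had the lowest CD79B, at 7.47 against 8.58 in the next pig, and the lowest BLNK, at 6.35 against 8.34 in the next. Its BTK was not extreme, at 8.67 and rank 8 from the lowest, while its SPIB of 7.11 was the next to lowest. Pig 6 had the lowest BTK, at 6.85 against 8.14 in the next pig, and the lowest SPIB, at 6.93. In pig 6, CD79B was in the middle of the range, at 9.46 and rank 14, and BLNK was 8.49. The low level of the receptor chain and the adaptor in pig 27 and the low level of the kinase in pig 6 were thus in different animals. Pig 27 was on 3 arrays, CD4+ with IL-10 high, CD4+ with IFN-alpha low and CD8+ with IL-10 low, and pig 6 was on 1, CD4+ with W35 high.

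**Figure D1:**
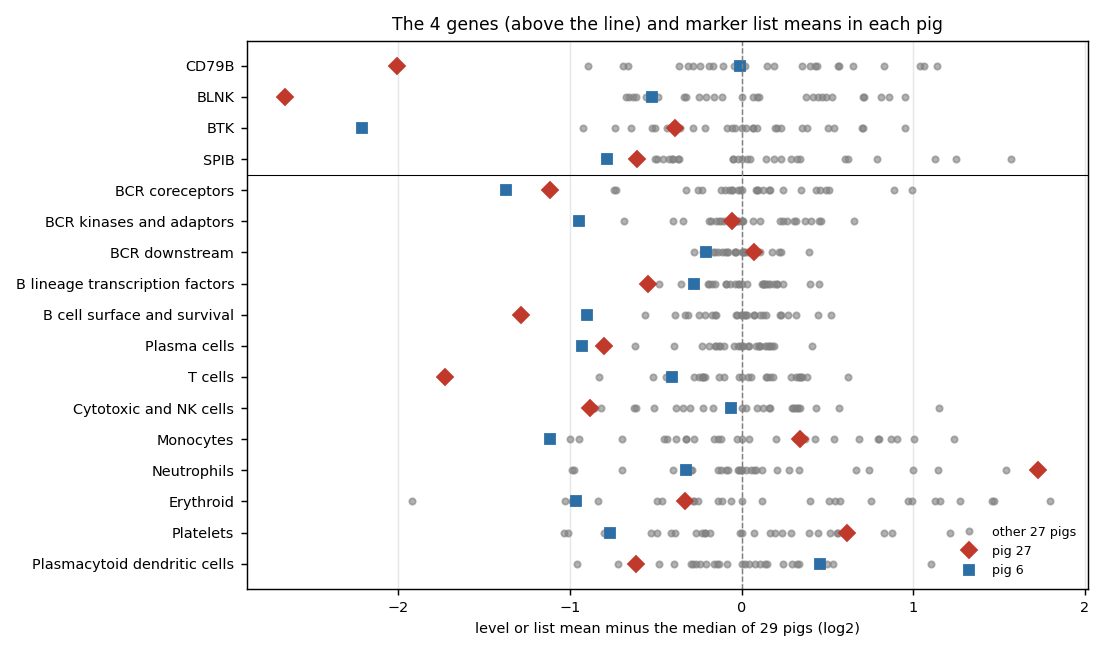
Level of each of the 4 genes (above the line) and mean of each marker list (below it) in each of 29 pigs, as the log2 difference from the median pig. Pig 27 (red diamonds) is lowest for CD79B and BLNK and for the T cell, cytotoxic, B lineage transcription factor and B cell surface lists. It is highest for the neutrophil list. Pig 6 (blue squares) is lowest for BTK and SPIB and for the monocyte, plasma cell, coreceptor and kinase lists. The kinase list includes BTK and BLNK, and the transcription factor list includes SPIB.

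Pig 27 was low in many T cell genes and in some other B lineage genes. Of the 32 further genes on the B cell lists used here, 17 were below and 15 above the median of the other pigs in this animal, with 9 the lowest and 5 the highest of all pigs. CD40, a costimulatory receptor, was at 6.51 against a median of 8.53 in the other pigs. BCL11A, a B lineage transcription factor, was at 5.03 against 7.04, and both were the lowest of the 29 pigs. The 6 plasma cell genes were split: JCHAIN, the joining chain of secreted antibodies, at 9.85 against 11.57, was the lowest, as were XBP1 and CD38, while SDC1, at 7.77 against 6.95, and FKBP11, at 11.22 against 10.58, were the highest, and TNFRSF17 was at rank 14 from the lowest. Receptor signalling genes were split too, with LYN at 11.44 against 10.32 and SPI1 at 10.29 against 8.90 the highest, and CR1, a complement receptor, at 3.15 against 6.48 and the kinase FYN at 7.62 against 9.21 the lowest. Of 9 T cell genes all were below the median of the other pigs and 7 were the lowest, among them CD3E, at 6.92 against 9.43, and LCK, at 7.48 against 9.77. Of the 6 cytotoxic cell genes 5 were below the median, as were all 3 plasmacytoid dendritic cell genes. All 5 platelet genes and all 7 neutrophil genes were above the median, with LTF at 11.39 against 8.42. Of the 6 monocyte genes 4 were above it and 2 below: CD163, at 10.71 against 7.54, was the highest of all pigs, CD14, at 7.75 against 8.13, was at rank 8, and the list mean was at rank 19. In pig 6, FCGR2B, the inhibitory Fc receptor of B cells and myeloid cells, was at 5.85 against 8.21, and PTPRC, the phosphatase CD45, at 6.54 against 8.18, both the lowest. The means of the monocyte, plasma cell and coreceptor lists were also lowest in pig 6. So was the mean of the kinase list, which includes BTK and BLNK. Of the 8 other genes of that list, 7 were below the median of the other pigs and 4 were the lowest. Pig 27 was the lowest animal by at least 1 log2 unit in 148 of 4940 genes at or above the median level, and pig 6 in 63, against at most 7 in any other pig. At the upper end, pig 14 was highest by this gap in 62 genes, against at most 6 in any other pig. Median correlations with the other arrays of a pair were 0.9204 to 0.9345 for pig 27 and 0.9265 for pig 6. All other arrays had 0.9549 or more. The part of cell composition or array quality in the levels of these pigs was not tested.

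The comparisons ask whether blood of high and low pigs differed in the 4 genes. None of the 4 passed an adjusted p of 0.05 in any trait pair (limma with Benjamini-Hochberg adjustment over all 23999 probe sets, n = 5 a group), and 0% of all probe sets did so in each of the 8 pairs. The lowest adjusted p of a member was 0.564. At an unadjusted p under 0.05, 4 of 32 gene differences remained, 3 of SPIB and 1 of BTK. In CD4+ with W35, 0 of the 4 genes had such a p, against 8.93% of all probe sets, and in CD8+ with W35 0 of 4, against 3.43%. In IFN-alpha with W35 it was 1 of 4 (SPIB, lower in the high pigs), against 4.24% of all probe sets. In IL-10 with W35 it was 1 of 4 (SPIB, higher), against 3.19%. In CD4+ with IFN-alpha it was 1 of 4 (SPIB, higher), against 3.87%, and in CD4+ with IL-10 1 of 4 (BTK, lower), against 6.18%. In CD8+ with IFN-alpha it was 0 of 4, against 1.98%, and in CD8+ with IL-10 0 of 4, against 2.53%. Because trait pairs have pigs in common, their values stand side by side below and are not independent of each other.

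**Figure D2:**
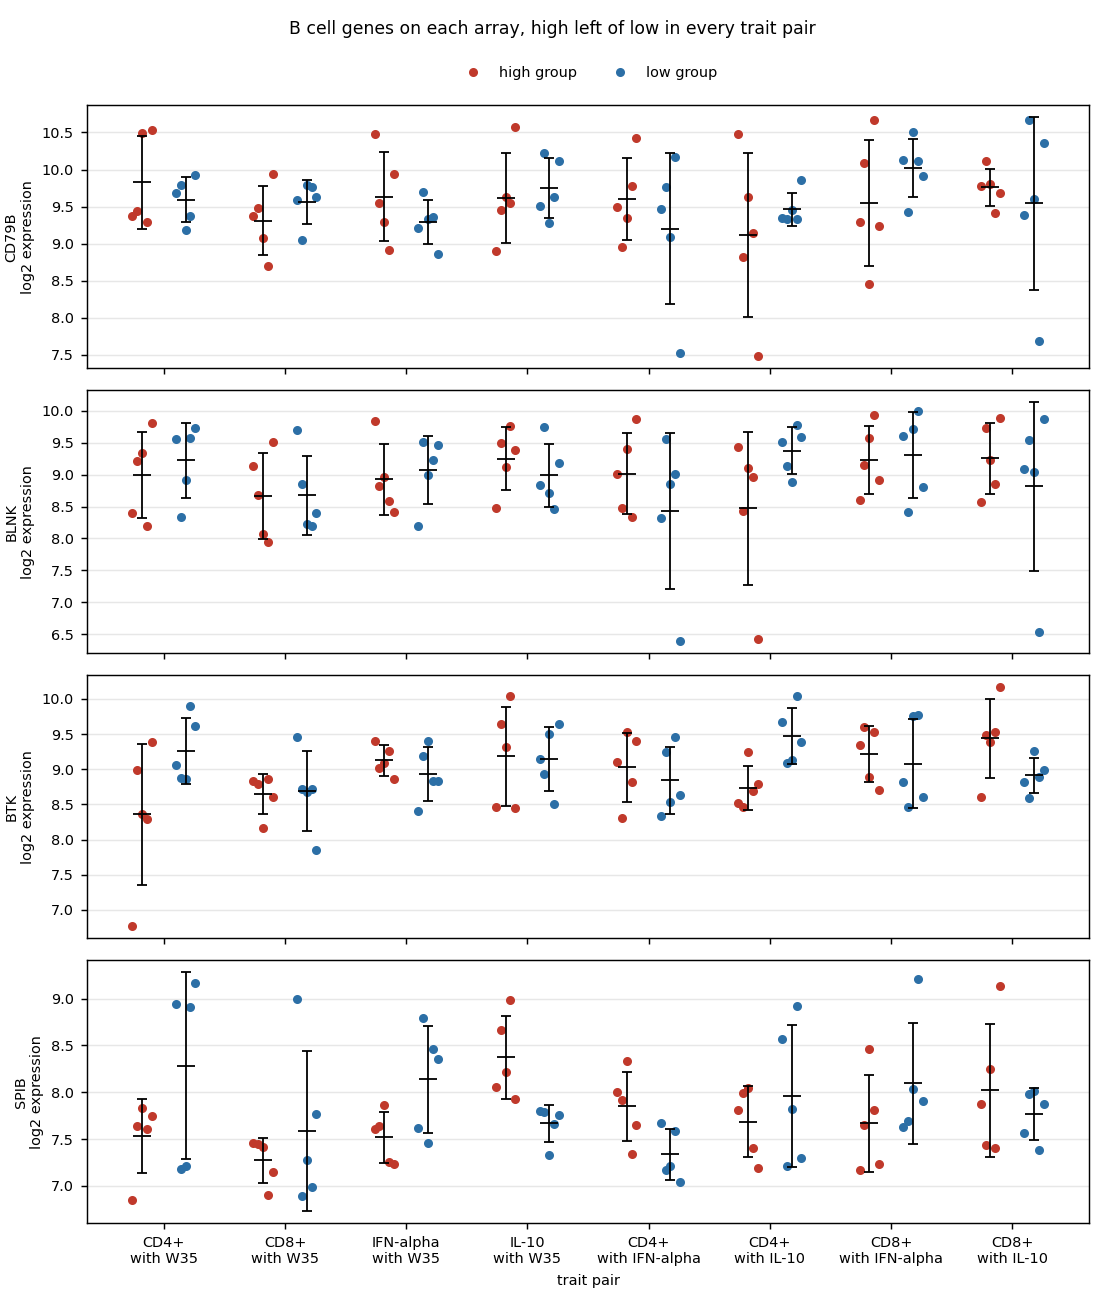
Deposited log2 expression of CD79B, BLNK, BTK and SPIB on each of the 80 arrays, with the 5 high arrays (red) left of the 5 low arrays (blue) in every trait pair and the mean and SD as bars. The high and low arrays of SPIB in IL-10 with W35 do not overlap, and the lowest points of CD79B and BLNK in CD4+ with IL-10 (high), CD4+ with IFN-alpha (low) and CD8+ with IL-10 (low) are pig 27.

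CD79B, which carries the receptor's signal into the cell, gave differences between -0.47 and 0.40 log2 units, with SEs of 0.23 to 0.46. Its differences in the 8 pairs had unadjusted p of 0.222 or more. In CD8+ with IFN-alpha, CD79B was 9.29, 10.09, 8.46, 10.66 and 9.24 in the high pigs, against 10.13, 9.43, 10.51, 10.11 and 9.91 in the low pigs. High pigs spanned the whole range of the low pigs and beyond, and the difference was -0.47 (95% interval -1.26 to 0.33, adjusted p = 1). In IFN-alpha with W35, CD79B was 10.48, 9.55, 9.29, 8.92 and 9.94 in the high pigs, against 9.22, 9.69, 9.34, 9.36 and 8.86 in the low pigs. The groups overlapped, with 2 high pigs above every low pig, and the difference was 0.34 (interval -0.25 to 0.93, adjusted p = 0.999). In the 3 pairs that hold pig 27 the CD79B difference followed the label of that animal, and it was -0.02 in CD4+ with IFN-alpha, 0.06 in CD4+ with IL-10 and -0.25 in CD8+ with IL-10 without it, against 0.40, -0.35 and 0.22 with it.

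BLNK, which couples the receptor to BTK and phospholipase C gamma, gave differences between -0.90 and 0.59, with SEs of 0.28 to 0.55 and unadjusted p of 0.0874 or more. In CD4+ with IL-10, BLNK was 9.43, 8.44, 9.11, 8.97 and 6.43 in the high pigs, against 9.51, 9.13, 8.88, 9.77 and 9.59 in the low pigs. The value of 6.43 is pig 27, and the other high pigs overlapped with the low ones. The difference was -0.90 (interval -1.96 to 0.16, adjusted p = 0.749), and -0.39 without pig 27. In CD4+ with IFN-alpha, BLNK was 9.01, 8.47, 9.40, 8.33 and 9.87 in the high pigs, against 8.32, 9.56, 8.86, 9.01 and 6.39 in the low pigs, where the same animal was the lowest. That difference was 0.59 (interval -0.57 to 1.75, adjusted p = 0.971), and 0.08 without pig 27. In CD8+ with IL-10 it was 0.44 with pig 27 among the low animals and -0.13 without it. The remaining 5 pairs gave BLNK differences of -0.23 to 0.26.

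BTK, the kinase downstream of the receptor, had its lowest p in CD4+ with IL-10. There it was 8.52, 8.46, 9.24, 8.68 and 8.79 in the high pigs, against 9.67, 9.09, 9.14, 10.05 and 9.39 in the low pigs. Of the high pigs only 1, at 9.24, reached into the range of the low pigs. The mean was 8.74 ± 0.31 in the high and 9.47 ± 0.40 in the low pigs (SD, n = 5 each), a difference of -0.73 (SE 0.22, interval -1.21 to -0.26, unadjusted p = 0.006, adjusted p = 0.749 by limma), and the exact two-sided permutation p over all 252 assignments was 0.0238. Within the higher spike-in class it was -1.13 (4 high and 2 low arrays) and within the lower class -0.42 (1 high and 3 low arrays). The 6 measured monocyte genes were all lower in the high pigs of this trait pair, 2 of them with an unadjusted p under 0.05 (KLF4 -1.56, AIF1 -0.87), where 6.28% of all genes had such a p and 48.9% were higher. The list mean ranged from 7.01 to 8.35 in the high pigs, against 7.63 to 9.03 in the low pigs. The part of monocytes in the BTK difference was not tested.

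BTK had its next lowest p in the pairs CD4+ with W35 and then CD8+ with IL-10, neither under 0.05 before adjustment. For the first of these pairs BTK was 6.76, 8.99, 8.37, 8.29 and 9.38 in the high pigs, against 9.05, 8.88, 8.86, 9.91 and 9.61 in the low pigs. The lowest value is pig 6, and 3 of the 5 high pigs lay below all low pigs. The difference was -0.90 (SE 0.43, unadjusted p = 0.0569, adjusted p = 0.564 by limma) and -0.50 (unadjusted p = 0.115) without pig 6. With the erythroid and neutrophil list means as covariates it was -0.39 (unadjusted p = 0.427). All 6 monocyte genes were lower in the high pigs of this pair, 0 of them with an unadjusted p under 0.05, and the list mean ranged from 6.73 to 8.98 in the high pigs, against 7.46 to 8.76 in the low pigs. All 6 cytotoxic cell genes were higher, 5 of them with such a p, where 8.74% of all genes had one, and that list mean ranged from 9.67 to 10.23 in the high pigs, against 8.82 to 9.33 in the low pigs, with no overlap. The 3′ minus 5′ signal of the actin control, a measure of RNA quality, averaged 1.08 in the high and 0.69 in the low pigs. The part of these values in the BTK difference was not tested. In CD8+ with IL-10, BTK was 8.61, 9.49, 9.39, 9.54 and 10.17 in the high pigs, against 8.82, 8.59, 9.27, 8.89 and 8.99 in the low pigs. Here 4 of the 5 high pigs lay above every low pig, and the difference was 0.53 (SE 0.25, unadjusted p = 0.0627, adjusted p = 1 by limma). In the CD8+ pair all 6 monocyte genes were higher in the high pigs, 3 of them with an unadjusted p under 0.05, where 2.78% of all genes had one. CD14 was higher by 2.15, and the list mean ranged from 7.90 to 9.32 in the high pigs, against 7.03 to 8.41 in the low pigs. The part of monocytes in this BTK difference was not tested either. Pigs 8, 26 and 27 were low here and high in CD4+ with IL-10, and pigs 4 and 25 were high here and low there. Pig 13 was low and pig 19 high in both pairs. The opposite BTK and monocyte differences of these pairs thus come in large part from the same animals and are not independent. In the other 5 pairs BTK differed by -0.03 to 0.19.

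SPIB, the lineage transcription factor, was the member with the lowest p, in IL-10 with W35. Its values were 8.06, 8.67, 8.22, 8.99 and 7.93 in the high pigs, against 7.80, 7.79, 7.33, 7.66 and 7.76 in the low pigs. Every high pig lay above every low pig, which held in this direction for 0.221% of all probe sets in this trait pair. The mean was 8.37 ± 0.44 in the high and 7.67 ± 0.19 in the low pigs (SD, n = 5 each). The difference was 0.71 (SE 0.21, interval 0.25 to 1.16), 1.63-fold, with an unadjusted p of 0.0055 and an adjusted p of 1 by limma, and 0.296% of probe sets had a smaller p. The exact two-sided permutation p was 0.00794, the smallest that 252 assignments allow. Of the high pigs 4 were in the higher EIF1AY class, against 1 of the low pigs, and with EIF1AY as a covariate the SPIB difference was 0.44 (unadjusted p = 0.0981). The single array of the lower spike-in class in this pair was a low one, so no value could be had within that class.

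The other SPIB differences ran both ways. In CD4+ with IFN-alpha, SPIB was 8.00, 7.92, 8.33, 7.34 and 7.65 in the high pigs, against 7.67, 7.17, 7.22, 7.58 and 7.04 in the low pigs. The upper 3 high pigs lay above all low pigs and the remaining 2 within their range. The difference was 0.51 (SE 0.20, unadjusted p = 0.0259, adjusted p = 0.971 by limma), with 0.49 in the higher spike-in class (4 high and 3 low arrays) and 0.24 in the lower (1 high and 2 low arrays). All 5 high pigs and 1 low pig were in the higher EIF1AY class, and the difference was 0.0028 with EIF1AY as a covariate. In IFN-alpha with W35, SPIB was 7.61, 7.64, 7.87, 7.25 and 7.23 in the high pigs, against 7.62, 8.79, 7.46, 8.47 and 8.35 in the low pigs. Low pigs thus held a group of 3 arrays above every high pig and 2 within their range. The difference was -0.62 (SE 0.25, unadjusted p = 0.0323, adjusted p = 0.999 by limma), with -0.11 in the higher spike-in class (2 high and 3 low arrays) and -1.20 in the lower (3 high and 2 low arrays). The exact two-sided permutation p was 0.0873. Of the high pigs 4 were in the higher EIF1AY class, against 2 of the low pigs. With the erythroid and neutrophil list means as covariates this SPIB difference was -0.41 (unadjusted p = 0.135). In CD4+ with W35, SPIB was 6.85, 7.64, 7.83, 7.61 and 7.74 in the high pigs, against 8.95, 7.18, 7.21, 8.91 and 9.17 in the low pigs, where 3 arrays were above and 2 within the range of the high pigs. That difference was -0.75 (SE 0.41, unadjusted p = 0.0967, adjusted p = 0.574 by limma). It was -0.58 without pig 6, and -0.06 (unadjusted p = 0.858 by limma) with the erythroid and neutrophil list means as covariates. Of the 5 erythroid genes 4 were lower in these high pigs, with a median of -1.64, and the part of erythroid RNA was not tested beyond that covariate fit.

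**Figure D3:**
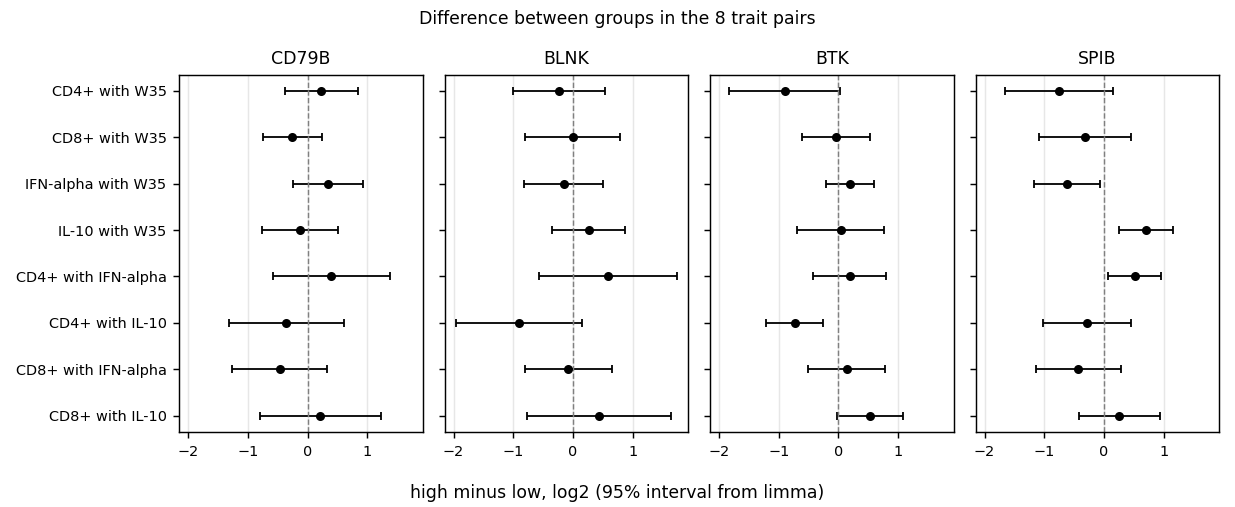
Difference of each gene, high minus low in log2 units, in the 8 trait pairs, with its 95% interval from limma. SPIB in IL-10 with W35 (0.71) and CD4+ with IFN-alpha (0.51) lies above 0, and SPIB in IFN-alpha with W35 (-0.62) and BTK in CD4+ with IL-10 (-0.73) lie below it, before adjustment over probe sets.

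A few animals carried the highest SPIB and recurred between pairs, some of them under different labels. Pig 5 had the highest SPIB over pigs, 9.28, followed by pig 4 at 8.96, pig 1 at 8.84 and pig 24 at 8.51. Pigs 1, 4 and 5 are the 3 upper low arrays of CD4+ with W35, at 8.95, 8.91 and 9.17. Pig 4 was the highest high array of IL-10 with W35 (8.99) and of CD8+ with IL-10 (9.13), and the highest low array of CD4+ with IL-10 (8.92). Pig 24 was the next high array of IL-10 with W35 (8.67) and the next low array of CD4+ with IL-10 (8.56). It was also the highest high array of CD4+ with IFN-alpha (8.33). IL-10 with W35 and CD4+ with IFN-alpha share high pigs 19, 23 and 24 and low pigs 9 and 22. Their SPIB differences are thus not independent. Pig 5 was the highest low array of CD8+ with W35 (8.998) and of CD8+ with IFN-alpha (9.21). By EIF1AY class SPIB averaged 7.95 ± 0.61 in the 11 higher pigs and 7.69 ± 0.57 in the 18 lower pigs (SD).

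The wider pathway was read from 7 lists of receptor, signalling, transcription factor, surface and plasma cell genes, of which 32 genes besides the 4 members were measured. None of the 32 passed an adjusted p of 0.05 in any pair. At an unadjusted p under 0.05, CD4+ with W35 had 1 gene higher (CBLB 0.66) and 1 lower (CR1 -1.83), or 2 of 32, against 8.74% of all genes. CD8+ with W35 had 1 of 32 (PRKCB -0.76), against 4.35% of all genes. IFN-alpha with W35 had 1 of 32 (XBP1, a plasma cell transcription factor, -0.56), against 4.77% of all genes. IL-10 with W35, CD4+ with IFN-alpha and CD8+ with IFN-alpha had 0 of 32, against 4.12%, 3.84% and 1.98% of all genes. CD4+ with IL-10 had 3 of 32, all lower (CR1 -1.99, FCGR2B -0.72 and PTPRC -0.36), beside the lower BTK, against 6.28% of all genes. With pig 27 left out of its high group, 17 of the 32 were higher, against 13 with it, where 53% of all genes were higher. At such a p 2 of the 32 were then higher and 1 lower, where 7.14% of all genes had one. CD8+ with IL-10 had 3 of 32, all higher (PTPN6 1.32, CD38 1.08 and FCGR2B 0.91), against 2.78% of all genes. Pigs 4, 8, 25, 26 and 27 carried opposite labels in CD4+ with IL-10 and CD8+ with IL-10, so the FCGR2B differences are not independent. In CD8+ with IL-10, 26 of the 32 genes were higher in the high pigs, with a median difference of 0.27. There 51.5% of all genes were higher and their median was 0.01. Without pig 27, 1 of the low animals, 20 of the 32 were higher with a median of 0.24, 7 of them with an unadjusted p under 0.05, where 48.6% of all genes were higher and 7.14% had such a p. In the full comparison the 9 T cell, 6 monocyte and 5 platelet genes were all higher as well. The T cell list mean ranged from 8.77 to 9.64 in the high pigs, against 7.55 to 9.89 in the low pigs, and the platelet list mean from 9.85 to 11.26 in the high pigs, against 9.03 to 10.66 in the low pigs. The actin 3′ minus 5′ signal averaged 0.87 in the high and 1.37 in the low pigs, and the part of these values in the 26 of 32 was not tested. For CD4+ with W35, 22 of 32 were lower, with a median of -0.23, where 47% of all genes were higher with a median of -0.02. Without pig 6 it was 19 of 32 with a median of -0.09, where 51.5% of all genes were higher. The pathway genes are not independent of each other, and these counts are a description. LYN, the kinase that phosphorylates the CD79 tails, differed by -0.33 to 0.45 over the 8 pairs, with a lowest unadjusted p of 0.278.

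Across the 29 pigs the genes did not all vary together, and BLNK stood between CD79B and SPIB. CD79B and BLNK correlated with Pearson r = 0.70 (permutation p = 0.00016, adjusted p = 0.00096 over the 6 gene pairs) and Spearman rho = 0.53 (permutation p = 0.00373, adjusted p = 0.00746). Without the 2 pigs farthest from the median of CD79B, r was 0.46 (adjusted permutation p = 0.034). Within the higher spike-in class r was 0.66 (18 pigs, adjusted permutation p = 0.0112), and within the lower class it was 0.69 with a rho of 0.05 (11 pigs, adjusted permutation p = 0.333 for r), where pig 27 is 1 of the points. BLNK and SPIB correlated with r = 0.57 (permutation p = 0.0011, adjusted p = 0.0033) and rho = 0.56 (permutation p = 0.00199, adjusted p = 0.00746). Without the 2 pigs farthest from the median of BLNK it was 0.53 (adjusted permutation p = 0.0215), and within the classes 0.66 (higher, adjusted permutation p = 0.0112) and 0.49 (lower, adjusted permutation p = 0.352). After the erythroid and neutrophil list means were taken out, r between BLNK and SPIB was 0.76.

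BTK followed BLNK more loosely. The r of 0.44 (permutation p = 0.0265) missed 0.05 after adjustment, at 0.053, while the rho of 0.54 (permutation p = 0.00298) had an adjusted p of 0.00746. Without the 2 pigs farthest from the median of BLNK, r was 0.49, and it was 0.55 in the higher and 0.37 in the lower spike-in class. BTK and SPIB gave r = 0.39 (permutation p = 0.0391, adjusted p = 0.0586) and rho = 0.20 (permutation p = 0.292, adjusted p = 0.312), and r dropped to 0.15 without the 2 pigs farthest from the median of BTK, of which pig 6 is 1, so the relation rests on those animals. Their r was 0.53 in the higher and -0.22 in the lower spike-in class. CD79B and SPIB gave r = 0.23 (permutation p = 0.223, adjusted p = 0.268) and rho = 0.29 (permutation p = 0.127, adjusted p = 0.19). Without the 2 farthest pigs r was 0.12, and within the classes 0.15 (higher) and 0.29 (lower). CD79B and BTK gave r = 0.20 (permutation p = 0.289, adjusted p = 0.289) and rho = 0.19 (permutation p = 0.312, adjusted p = 0.312). Without the 2 farthest pigs r was 0.25, and within the classes 0.25 (higher) and 0.03 (lower).

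**Figure D4:**
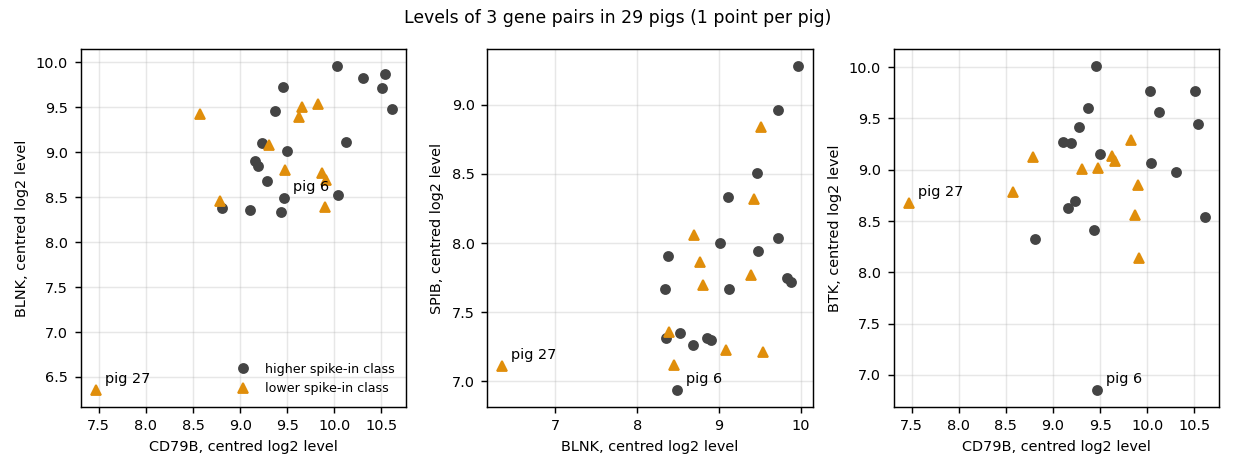
Levels of BLNK against CD79B, SPIB against BLNK and BTK against CD79B in 29 pigs, in centred log2 units, with 1 point per pig and the shape marking the spike-in class. The first 2 panels have r of 0.70 and 0.57 and the third 0.20, and pigs 27 and 6 lie away from the other points.

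The genes most like each member over the 29 pigs differed from member to member. For CD79B they were CTSH, a lysosomal protease (r = 0.87), the MHC class II chains SLA-DQA1 (0.86) and SLA-DQB1 (0.83), the chaperone HSP90AB1 (0.85) and LY86, the partner of the B cell and myeloid receptor CD180 (0.83). For BLNK they were FCF1, a factor of ribosomal RNA processing (0.88), ATL2, a GTPase of the endoplasmic reticulum (0.87), the protease CAPN7 (0.86), ANGEL2 (0.86) and NSMAF (0.86). For BTK they were TPD52 (0.83), DPYD, an enzyme of pyrimidine breakdown (0.82), ITFG1 (0.82), RAB3GAP1 (0.81) and ATP2C1, a Golgi calcium pump (0.81). For SPIB they were the mitochondrial import protein TIMM13 (0.81), METTL5 (0.77), PITPNB (0.77), SEC23IP (0.77) and LOC100625971 (0.76). None of the 20 is in the 7 B cell lists. All points come from the same 29 blood samples and arrays, and these values are a description of the highest among 4939 genes. Spearman rho was 0.73 to 0.81 for the CD79B genes, 0.75 to 0.80 for BLNK, 0.64 to 0.77 for BTK and 0.56 to 0.78 for SPIB. Pig 27, the lowest for CD79B and BLNK, was also lowest by at least 1 log2 unit in CTSH, SLA-DQA1, SLA-DQB1 and HSP90AB1. The same held for ATL2, CAPN7 and NSMAF. The part of pig 27 in these r was not tested.

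Among the 35 other measured genes of the B cell lists, r above 0.5 was found for 3 with CD79B: CD40 (0.76), BLNK (0.70) and BCL11A (0.69). Of 4939 genes at or above the median level, 16.3% passed it. The shares here cover only genes at or above that level, while MALT1, NFKB1 and CD180 among the list genes lie below it. BLNK had 8 of 35, where 24.9% of the genes at or above that level passed, led by BCL11A (0.85), CD40 (0.77) and CR1, a complement receptor (0.71). BTK had 5 of 35, where 17.5% of the genes at or above that level passed: FCGR2B (0.67), the phosphatase PTPN6 (0.67), the calcium channel ORAI1 (0.63), CD38 (0.54) and CD40 (0.52). SPIB had 2 of 35, where 7.03% of the genes at or above that level passed, BLNK (0.57) and BCL11A (0.56). BCL11A and CD40 passed 0.5 with both BLNK and CD79B, and CD40 also with BTK. Pig 27 was the lowest of all pigs for CD79B, BLNK, BCL11A and CD40. The r of BCL11A and CD40 were not taken again without it.

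Marker lists of other blood cells were set against each member over the 29 pigs, 28 relations in all, and none passed an adjusted p of 0.05 (the lowest was 0.0975). The highest was BTK with the monocyte list, at r = 0.51 (permutation p = 0.00374, adjusted p = 0.0975) and rho = 0.47 (permutation p = 0.012, adjusted p = 0.272), 0.54 without the 2 farthest pigs, and 0.59 in the higher and 0.17 in the lower spike-in class. BLNK with the T cell list gave r = 0.50 (permutation p = 0.0175, adjusted p = 0.0975) with a rho of 0.10 (permutation p = 0.608), and -0.14 without the 2 farthest pigs. CD79B with the neutrophil list gave r = -0.45 (permutation p = 0.0161, adjusted p = 0.0975) with a rho of -0.28 (permutation p = 0.136), and -0.23 without the 2 farthest pigs. BLNK with the neutrophil list gave r = -0.48 (permutation p = 0.00962, adjusted p = 0.0975) with a rho of -0.32 (permutation p = 0.088), and -0.11 without the 2 farthest pigs. These 3 relations rest on the farthest animals. In the lower spike-in class, which holds pig 27, their r were 0.77, -0.80 and -0.59, and in the higher class 0.07, -0.09 and -0.35. BTK with the platelet list gave r = 0.43 (permutation p = 0.0168, adjusted p = 0.0975) and rho = 0.44 (permutation p = 0.0194, adjusted p = 0.272), 0.45 without the 2 farthest pigs, and 0.54 in the higher and -0.03 in the lower class. SPIB had its highest r with the erythroid list, 0.43 (permutation p = 0.0209, adjusted p = 0.0975) and rho = 0.39 (permutation p = 0.0372, adjusted p = 0.348), 0.43 without the 2 farthest pigs, and 0.41 in the higher and 0.56 in the lower spike-in class. SPIB and the plasmacytoid dendritic cell list gave r = -0.25 (permutation p = 0.189, adjusted p = 0.587) and rho = -0.08 (permutation p = 0.668), with 3 genes of that list measured.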

How the data were processed

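Whole blood RNA of 35-day-old pigs was hybridised to porcine arrays. Per the submitters' processing notes the authors used RMA and limma, with versions not given in the sources used here; the values they deposited are on a log2 scale, 1 for each probe set. Array means agreed within 0.06 inside a trait pair but lay between 5.65 and 6.07 over the pairs. Each pair was therefore fitted alone, on 5 high and 5 low arrays. The table holds 24123 probe sets, of which 124 controls were left out. The platform annotation gives 10069 probe sets with 1 symbol, 198 with several and 13732 with none. R 4.3.3 with limma 3.58.1 was used (lmFit, eBayes, two-sided), with Benjamini-Hochberg adjustment over 23999 probe sets and a threshold of 0.05. Correlations used 1 value per pig and permutation tests with 100000 resamples, in Python 3.11.15 with scipy 1.17.1. Both steps were tested on simulated data. For other genes the probe set with the highest mean stood for the gene. Named by rule were the members, the 5 genes most like each, and in each pair up to 4 B lineage genes with the smallest unadjusted p under 0.05. CD40, BCL11A and other genes of pigs 6 and 27 were chosen after their values were seen. The members, lists and tests were chosen with earlier results of these data known. Alternatives were another normalization, centring, a level filter, other eBayes settings, array weights, blocks, covariates and leaving out arrays, and, added after seeing the data, leaving out pigs 6 and 27. Spike-in classes were set at the largest gap of bioB minus bioC. Arrays give no counts, so the number of arrays limits the precision. Genome positions were not used here, since no build is named.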

Additional observations from a re-analysis of the deposited data

Results flagged for a closer look

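Dixon's ratio compared the highest and lowest value with its neighbour in 64 sets of 5 values, 1 for each gene in each group of arrays. In 5 sets a value stood apart. Chance gives about 1 in 20 sets, but pigs recur between groups, so the sets are not independent. In CD8+ with IL-10 the low array of replicate 4, pig 27, had a BLNK of 6.54, against 9.04 for the next low array. In CD4+ with W35 the high array of replicate 1, pig 6, had a SPIB of 6.85, against 7.61 for the next. In CD8+ with IFN-alpha the low array of replicate 4, pig 5, had a SPIB of 9.21, against 8.03 for the next. CD79B was low at 9.05 in CD8+ with W35 low replicate 2, pig 3, against 9.59 for the next, and high at 9.85 in CD4+ with IL-10 low replicate 5, pig 25, against 9.46 for the next. For pigs 3 and 25 the CD79B level was within the range of the other pigs.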

How the results depend on the processing

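No member passed an adjusted p of 0.05 under any alternative (lowest 0.113, BTK in CD4+ with IL-10 with the spike-in class as a block). Of 620 alternative values of the 32 gene differences 44 changed sign, in 13 differences; 19 never did, among them the 4 with an unadjusted p under 0.05. The cause of the changes below was not tested. With array weights CD79B was -0.033 in CD4+ with IFN-alpha and -0.11 in CD8+ with IL-10, BLNK 0.16, BTK 0.018 and SPIB 0.0008 in CD8+ with W35, and BTK -0.27 in CD8+ with IFN-alpha. With erythroid and neutrophil covariates BLNK was 0.31 in CD4+ with W35 and 0.28 for CD8+ with W35, BTK 0.11 in CD8+ with W35 and -0.037 in IL-10 with W35, and CD79B 0.32 in CD4+ with IL-10 and 0.078 in IL-10 with W35. With EIF1AY CD79B was 0.25 and BTK -0.15 in IL-10 with W35, and SPIB -0.42 in CD8+ with IL-10. Quantile normalization gave BLNK 0.011 in CD8+ with W35 and BTK -0.030 in IL-10 with W35, and centring BLNK 0.024 in CD8+ with W35. Without pigs 6 and 27 CD79B was -0.020 in CD4+ with IFN-alpha, 0.056 in CD4+ with IL-10 and -0.25 in CD8+ with IL-10, where BLNK was -0.13.

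Leaving out 1 array gave, for CD79B, -0.37 to 0.048 in IL-10 with W35, -0.020 to 0.64 in CD4+ with IFN-alpha, -0.69 to 0.056 in CD4+ with IL-10 and -0.25 to 0.50 in CD8+ with IL-10. For BLNK it gave -0.22 to 0.25 in CD8+ with W35, -0.30 to 0.10 in CD8+ with IFN-alpha and -0.13 to 0.70 in CD8+ with IL-10. For BTK it gave -0.24 to 0.16 in CD8+ with W35, -0.18 to 0.22 in IL-10 with W35 and -0.018 to 0.31 in CD8+ with IFN-alpha, and for SPIB -0.49 to 0.040 in CD8+ with W35 and -0.022 to 0.41 in CD8+ with IL-10. SPIB in IL-10 with W35 stayed between 0.55 and 0.82, and BTK in CD4+ with IL-10 between -0.86 and -0.59. The count of all probe sets past an adjusted p of 0.05 was 0 to 6 in CD4+ with W35, 0 to 1 in IFN-alpha with W35, 0 to 2 in IL-10 with W35 and 0 to 7 in CD4+ with IFN-alpha. It was 1 in IL-10 with W35 with array weights, 7 with the covariates and 4 with EIF1AY in CD4+ with IFN-alpha, and 25 in CD4+ with IL-10 with the spike-in block.

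For the correlations, CD79B with BLNK was 0.69 and BLNK with SPIB 0.49 in the lower spike-in class, both no longer past 0.05 (11 pigs). CD79B with SPIB passed it after the erythroid and neutrophil means were taken out (0.49). BLNK with BTK passed it as deposited (0.46), without the 2 farthest pigs (0.49), in the higher class (0.55), after taking out the list means (0.44) and without pigs 6 and 27 (0.53). BTK with SPIB passed it as deposited (0.43) and in the higher class (0.53) and was -0.22 in the lower class.

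Replicate numbers did not pair the arrays: same-numbered arrays correlated from -0.544 to 0.365 after group means were removed. With the replicate block 0 probe sets passed in every pair and 4 gene differences had an unadjusted p under 0.05, with BTK in CD4+ with W35 among them and SPIB in IFN-alpha with W35 no longer so. The spike-in block could not be fitted in IL-10 with W35, and the mean over probe sets of a gene was not run, since each member has 1.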
